A study of Homo sapiens with 12 samples.

Results

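COLO858 melanoma cells held for 48 h in 0.2 μM vemurafenib were compared with the same cells under DMSO, the drug's solvent. The comparison rests on 4 of the 12 libraries of the series, chosen by their labels: COLO858_vem_48h replicates 1 and 2 and COLO858_DMSO replicates 1 and 2. The other libraries are COLO858 at 24 h and a second melanoma line, MMACSF, in the same 3 conditions. COLO858 is an established human melanoma line with an activating mutation of BRAF, so every COLO858 group carried that allele, and by their labels the groups differ only in vemurafenib. It is 1 line grown on plastic in medium with serum, seeded on 10-cm plates in 2 replicates and treated the next day with fresh medium. How long the DMSO plates were kept is not in the labels, so any change of untreated cells with time in culture or with density cannot be told apart from the drug.

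In melanocytes and in melanoma, BRAF relays growth signals through MEK to the kinase ERK, and ERK drives genes of the cell cycle and a set of its own brakes, such as the dual-specificity phosphatases and Sprouty proteins. Vemurafenib binds mutant BRAF and shuts off this relay. Melanocytes descend from the neural crest, the embryonic source of Schwann cells and peripheral neurons as well, and melanoma cells under treatment are known to move between pigmented and neural crest-like states. The study follows the receptor NGFR as the marker of such a state and asks about JUN, a subunit of the AP-1 family of transcription factors, and about the extracellular matrix.

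Values are the authors' FPKM (fragments per kilobase, relative to all mapped fragments), which give relative levels and no read depth. The 4 libraries listed between 11551 and 11756 genes at or above 1 FPKM. The FPKM of a library summed to between 670310 and 900825, of which small RNA genes took 20.3% and 35.8% under DMSO and 25.7% and 41.7% at 48 h, more in replicate 2 each time. These small RNA genes were left out. Replicates of a group correlated with r = 0.981 and 0.982 across genes on the log2(FPKM + 1) scale, and a DMSO with a 48 h library with r = 0.894 to 0.913. Nothing in the sources says that the replicates were separate cultures or days, so p-values measure only the spread between these plates. Of the 155 protein-coding genes found at chromosome 6, 28870779 to 33377673 (GRCh37), the MHC region taken from TRIM27 to KIFC1, 137 were listed at 0 in all 12 libraries (88.4%), against 12.7% of the other 16983. RPS18, a ribosomal protein gene that every cell uses, was among them, so a 0 in that region is reported only as listed at 0.

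Expression was compared on the log2(FPKM + 1) scale for the 12181 of 23273 listed genes that reached a mean of 1 FPKM in either group. With limma and a Benjamini-Hochberg adjusted p of 0.01 as the threshold, 828 genes (6.80%) were higher at 48 h and 891 (7.31%) were lower, 14.1% of all genes tested. Of the called genes, 1369 (11.2% of the genes tested) changed by a log2 fold-change of at least 1. The smallest change called was 0.53. When the replicate number was entered as a block, the counts became 3309 higher (27.2%) and 3733 lower (30.6%), 57.8% of all genes in either direction. The 1719 genes called without the block were all called with it, in the same direction. The 2 groups did not overlap for 62.5% of the genes, so separation of the 4 libraries was common. With 1 library left out, the counts higher and lower were 413 and 414 without DMSO replicate 1, 401 and 379 without DMSO replicate 2, 415 and 318 without 48 h replicate 1, and 372 and 333 without 48 h replicate 2. The median log2 fold-change over all genes was −0.02.

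The gap between both fits came from the spread and not from the fold-changes, which are identical in the 2 fits. Libraries that share a replicate number deviated together: across genes, the deviation of replicate 1 from its group mean correlated between DMSO and 48 h with r = 0.784. The median standard error (SE) of a log2 fold-change was 0.20 without the block and 0.081 with it. No source says what the numbers stand for. In what follows, "rose" and "fell" mean past the threshold without the block, and counts with the block stand beside them. Over all genes tested 6.80% rose and 7.31% fell (27.2% and 30.6% with the block), and the counts of every list are to be read against these shares. Genes averaging under 1 FPKM in 1 of the 2 groups were tested only where the other group reached that mean, which largely fixed their direction. Where leaving out a library moved a list's count by more than 1.5 times, the 4 counts are given in the order without DMSO replicate 1, DMSO replicate 2, 48 h replicate 1 and 48 h replicate 2. They are not given for the G1 cyclins and CDK inhibitors.

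**Figure D1:**
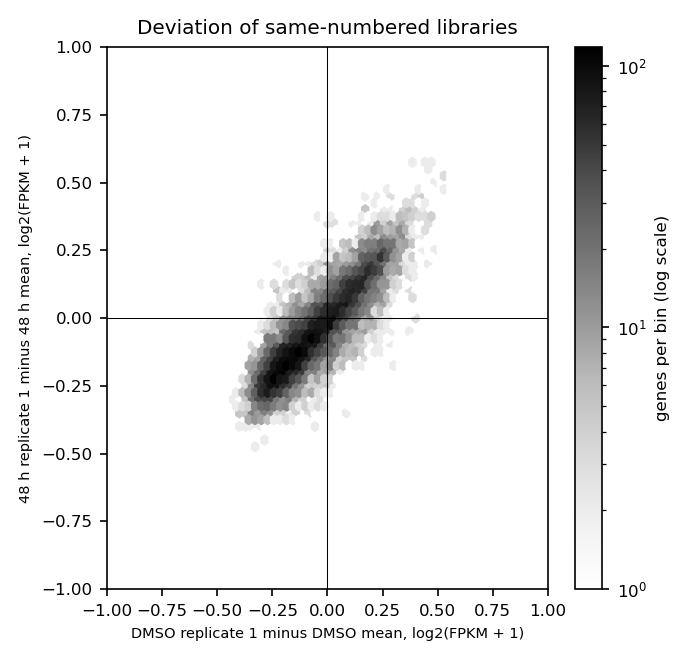
Deviation of replicate 1 from the mean of its group in log2(FPKM + 1), for DMSO on the x axis and 48 h on the y axis, with the shade of a bin giving its number of genes on a log scale. The genes lie along the rising diagonal, with r = 0.784 over 12181 genes.

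The label melanoma was checked against lineage markers. SOX10, the transcription factor of the melanocyte and glial lineages, stood at 227 and 159.7 FPKM under DMSO and 453 and 323 FPKM at 48 h. PMEL, the scaffold protein of the melanosome, stood at 65.9 and 63.3 FPKM under DMSO and 485 and 534 FPKM at 48 h, and MITF, the regulator of pigment genes, at 56.2 and 79.2 FPKM under DMSO and 57 and 77.6 FPKM at 48 h. MLANA and TYR, 2 other defining markers, were below 1 FPKM in every library, at 0.438 and 0.425 FPKM under DMSO and 0.725 and 0.662 FPKM at 48 h for MLANA and at 0.385 and 0.69 FPKM under DMSO and 0.356 and 0.282 FPKM at 48 h for TYR. Among the markers of other cell types, 3 of 6 fibroblast markers were tested, and these 3 were higher at 48 h. COL3A1 and COL1A1 averaged under 1 FPKM under DMSO, so they were tested only through the 48 h group, which fixed their direction. COL1A1 stood at 0.186 and 0.168 FPKM under DMSO and 1.54 and 1.15 FPKM at 48 h. Both COL3A1 and COL1A1 rose, 2 of the 3 tested (3 with the block). Leaving out 1 library kept 1 of these calls, and both without 48 h replicate 2. LUM (lumican, a small matrix proteoglycan) made up most of the summed level, at 5.30 and 8.27 FPKM under DMSO and 15.3 and 25.6 FPKM at 48 h, and passed only with the block (1.45 ± 0.30, limma adjusted p = 0.015 without and 8.9e-06 with it). The sum of the 6 was 6.10 and 9.44 FPKM under DMSO and 23.9 and 34.4 FPKM at 48 h, while DCN, PDGFRA and FAP stayed at or below 0.561 FPKM. Markers of the remaining cell types were low. Of 6 endothelial markers 0 reached 1 FPKM, of 7 leukocyte markers 2 did (CD68 and LYZ), and of 8 keratinocyte markers 1 did (KRT10, 8.77 and 8.17 FPKM under DMSO and 9.71 and 9.35 FPKM at 48 h). CD68, a lysosomal protein of macrophages that other cells also make, fell from 11.8 and 14.2 to 3.86 and 5.03 FPKM, a call lost with any 1 of the 4 libraries left out, and PTPRC, the defining leukocyte marker, was at or below 0.242 FPKM. Summed over each list, leukocyte markers were at 13.1 and 16.7 FPKM under DMSO and 4.31 and 5.53 FPKM at 48 h, and endothelial markers at 0.473 and 0.432 FPKM under DMSO and 1.24 and 0.766 FPKM at 48 h.

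The largest rise was that of THBS1 (thrombospondin-1, a secreted matrix glycoprotein; chromosome 15, 39873280 to 39891667, GRCh37, plus strand). It stood at 1.18 and 1.31 FPKM under DMSO and 209 and 221 FPKM at 48 h, a log2 fold-change of 6.59 ± 0.14 (SE; limma, adjusted p = 1.3e-05). MATN2, which encodes the matrix adaptor matrilin-2, went from 0.436 and 0.601 to 128 and 145 FPKM (6.50 ± 0.16). MGP, an extracellular inhibitor of calcification, went from 0.0752 and 0.202 to 49.5 and 65.6 FPKM (5.67 ± 0.20). These genes of secreted proteins were at or below 1.31 FPKM in both DMSO libraries and at or above 49.5 FPKM in both drug libraries.

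CRYAB, a small heat shock chaperone, stood at 0.366 and 0.164 FPKM under DMSO and 56.3 and 61.2 FPKM at 48 h (5.57 ± 0.17). NOV, a secreted member of the CCN family of matrix-associated proteins, stood at 3.07 and 4.52 FPKM under DMSO and 189 and 246 FPKM at 48 h (5.51 ± 0.22). The next were OLFML2A, from 0.606 and 0.722 to 55.9 and 59 FPKM, FAM129A, from 0.516 and 0.537 to 37.4 and 44.6 FPKM, and FAM19A3, from 1.11 and 1.31 to 52.2 and 61.7 FPKM. JUN had the smallest of the 10 largest rises, of which 9 are reported, at 0.956 and 0.643 FPKM under DMSO and 45.6 and 36 FPKM at 48 h (4.53 ± 0.22, limma adjusted p = 1.0e-04). Both drug libraries lay above both DMSO libraries for each of the 9, which follows from choosing them by the size of the rise. The 2 groups did not overlap for 62.5% of all genes tested.

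EDN3 fell most (endothelin-3, the secreted ligand of the endothelin receptor B, needed for neural crest-derived melanocytes; chromosome 20, 57875498 to 57901047, GRCh37, plus strand). It stood at 138 and 139 FPKM under DMSO and 1.32 and 1.14 FPKM at 48 h, a log2 fold-change of −5.97 ± 0.19 (limma, adjusted p = 4.4e-05). EDNRB, its receptor, moved the other way, from 7.46 and 9.65 FPKM to 126 and 161 FPKM (3.91 ± 0.20). UCN2, a peptide hormone of the corticotropin-releasing factor family, stood at 159 and 136 FPKM under DMSO and 2.09 and 1.64 FPKM at 48 h (−5.70 ± 0.19). ETV4, an ETS factor downstream of ERK, stood at 196 and 149.9 FPKM under DMSO and 2.99 and 2.38 FPKM at 48 h, and SPRY4, a feedback inhibitor of the pathway, at 271 and 277 FPKM under DMSO and 8.34 and 8.12 FPKM at 48 h. EDN3, UCN2, ETV4 and SPRY4 were at or below 8.34 FPKM in every drug library and at or above 136 FPKM in every DMSO library.

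The remaining large falls were GJB1 (connexin 32, a gap junction protein), from 40.4 and 32.5 to 0.523 and 0.181 FPKM, and NPR1, a receptor for natriuretic peptides, from 34.5 and 27.8 to 0.212 and 0.242 FPKM. TMEM158 went from 69.2 and 35.8 to 0.738 and 1.21 FPKM and SLC27A3, of the fatty acid transport protein family, from 81.1 and 58.1 to 2.64 and 1.31 FPKM. SPATS1 went from 21.2 and 26.8 to 0 and 0.0966 FPKM, with 1 drug library listed at 0. PHLDA2, an imprinted growth-restraining gene, went from 277 and 167 to 12.1 and 6.71 FPKM. The replicates of TMEM158 and PHLDA2 were the widest apart of the 19 genes reported, with SEs of 0.38 and 0.47.

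**Figure D2:**
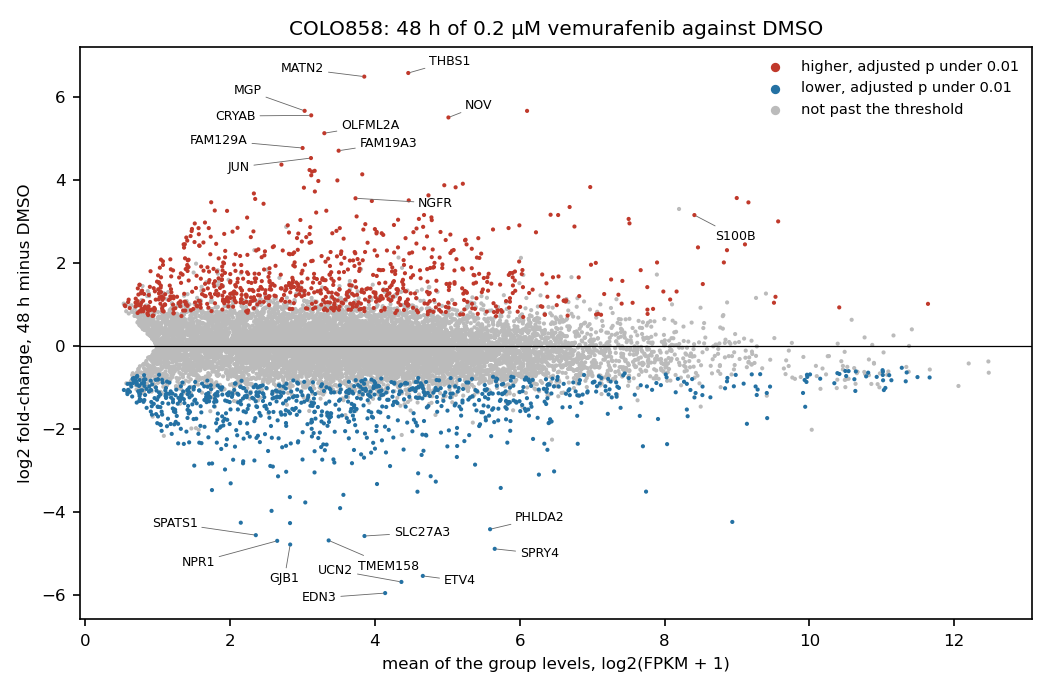
Log2 fold-change at 48 h against DMSO (y axis) by the mean level of a gene in log2(FPKM + 1) (x axis), with 1 point for each of 12181 genes. Red points are the 828 genes higher and blue points the 891 genes lower at an adjusted p under 0.01, and 19 of the 20 largest changes are named with NGFR and S100B.

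Among the AP-1 factors, the members split. Of 11 tested, 4 rose and 4 fell, and 5 and 6 did so with the block. The genes called lower numbered 3, 4, 3 and 2 when 1 library was left out. Beside JUN, FOSL2 rose from 2.44 and 1.57 to 21.2 and 16.1 FPKM (2.71 ± 0.25), the stress-responsive ATF3 from 2.56 and 3.77 to 24.2 and 28.3 FPKM (2.72 ± 0.22), and MAF from 0.0679 and 0.156 to 2.37 and 2.88 FPKM (1.70 ± 0.15). FOSL1, the member most tied to ERK signaling, fell from 69.8 and 59.9 to 16.2 and 13.8 FPKM (−2.04 ± 0.17). BATF3 (−1.84), FOS (−1.52) and MAFF (−1.52) also fell. JUNB went from 29.2 and 15 to 11.3 and 7.10 FPKM and passed the threshold only with the block (limma adjusted p = 0.14 without and 3.1e-04 with it), as did JUND in the other direction (0.89). The median of the list was −0.47, and over the 14 other settings tried it ranged from −0.72 to 0.21, so the list as a whole had no settled direction. On the FPKM scale, which is per length, JUN had the highest level of the 4 risers at 48 h.

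JUN protein binds the AP-1 site, and its own promoter is a known target. The RefSeq promoter windows (GRCh38.p14, 250 bases before to 50 after a gene's start) were searched on both strands for TGANTCA, the AP-1 site, and for TGACATCA, the variant known from JUN. These stretches are shown because JUN is among the largest rises and UCN2 among the largest falls. The match is in capitals, and each runs 5′ to 3′ on the gene's strand, at chr1:58784087-58784134 (minus strand) for JUN and chr3:48563857-48563903 (minus strand) for UCN2.
JUN: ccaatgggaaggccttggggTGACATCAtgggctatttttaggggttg
UCN2: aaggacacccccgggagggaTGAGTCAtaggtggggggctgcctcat
TGACATCA stood in 2.61% and TGANTCA in 7.71% of the 35116 RefSeq promoters. Among the 9720 promoters of tested genes the shares were 1.46% and 4.25%. Each pattern stood in rises and in falls, TGACATCA also in THBS2, which fell, and TGANTCA also in ANXA2, which rose. Neither pattern contains the other. A match shows only that these letters are in the window. Of the 50 largest rises and the 50 largest falls, 35 and 34 had a promoter in the table, fewer than 80%, so a comparison of motif shares between these sets was void and none is given.

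ERK output and feedback genes were lower. Of 22 tested, 0 rose and 14 fell (20 with the block), with a median log2 fold-change of −1.63. Besides ETV4 and SPRY4, the phosphatases DUSP4 (193 and 202 to 33 and 35 FPKM; −2.51 ± 0.13), DUSP5 (−2.22) and DUSP6 (−0.93 ± 0.15) fell. EGR1, an immediate-early transcription factor, stood at 15.7 and 14.4 FPKM under DMSO and 1.20 and 1.10 FPKM at 48 h (−2.90 ± 0.15). MYC stood at 136 and 113 FPKM under DMSO and 39.7 and 36.3 FPKM at 48 h (−1.68 ± 0.16) and CCND1, cyclin D1, at 418 and 466 FPKM under DMSO and 125 and 134 FPKM at 48 h (−1.76 ± 0.13). DUSP6 was the member with the smallest fall past the threshold, at 109.7 and 124 FPKM under DMSO and 60.0 and 61 FPKM at 48 h. IER2, ETV1, DUSP7, SPRED1, SPRED2 and PHLDA1 passed only with the block, and EPHA2 and SPRED3 passed in neither fit.

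The pigment lineage was mostly higher. Of 15 melanocyte genes tested, 8 rose and 1 fell (10 and 2 with the block), with a median of 1.27, while 6 of the list stayed under 1 FPKM. DCT, which makes a precursor of eumelanin, stood at 252 and 283 FPKM under DMSO and 2139 and 2161 FPKM at 48 h (3.01 ± 0.11), and PMEL, given above, changed by 2.96 ± 0.12. TYRP1, another melanogenic enzyme, stood at 2.04 and 3.48 FPKM under DMSO and 12 and 14.6 FPKM at 48 h. TFAP2A, a neural crest transcription factor, stood at 8.06 and 8.67 FPKM under DMSO and 72.6 and 86.8 FPKM at 48 h (3.10 ± 0.15). MITF did not follow, with a log2 fold-change of −0.00 ± 0.25, the second drug library and the second DMSO library both being the higher of their pair. LEF1, a nuclear effector of Wnt signaling, fell from 30.7 and 33.4 to 6.73 and 7.19 FPKM (−2.05 ± 0.15). SOX10 was higher in both drug libraries (1.00 ± 0.25) but passed the threshold only with the block (limma adjusted p = 0.028 without and 1.1e-06 with it).

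The neural crest and glial list had the highest median of the lists with at least 5 tested members, 2.05, with 13 of 18 genes higher and 1 lower (15 and 2 with the block). With 1 library left out 0, 1, 1 and 0 were lower. Myelin genes were among them. PMP2, a lipid carrier of peripheral myelin, stood at 0.689 and 1.17 FPKM under DMSO and 25.8 and 48.1 FPKM at 48 h (4.25 ± 0.33). MBP, myelin basic protein, stood at 0.639 and 0.511 FPKM under DMSO and 9.63 and 9.66 FPKM at 48 h (2.76 ± 0.15), and PMP22 at 58.8 and 67.4 FPKM under DMSO and 222 and 276 FPKM at 48 h. MAG, a myelin-associated adhesion molecule, went against them, from 20.2 and 15 to 3.83 and 2.41 FPKM (−2.18 ± 0.29). The receptor NGFR, which the study follows as its marker of the adapted state, stood at 2.89 and 2.82 FPKM under DMSO and 49.9 and 39.8 FPKM at 48 h (3.56 ± 0.20), and the calcium-binding S100B at 113 and 113 FPKM under DMSO and 996 and 1038 FPKM at 48 h (3.16 ± 0.11). FABP7, a fatty acid carrier of early glia, passed in the lower direction only with the block (−1.01), and SOX2 in neither fit (0.19). The study chose NGFR and S100B on these libraries, so they are not independent evidence of the list's direction. Lists and members were also chosen with earlier results of these data known, so the list's rank by median is only a description. The RNA comes from whole plates, in which a change in the share of cells with such a profile and a change in RNA per cell cannot be told apart.

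**Figure D3:**
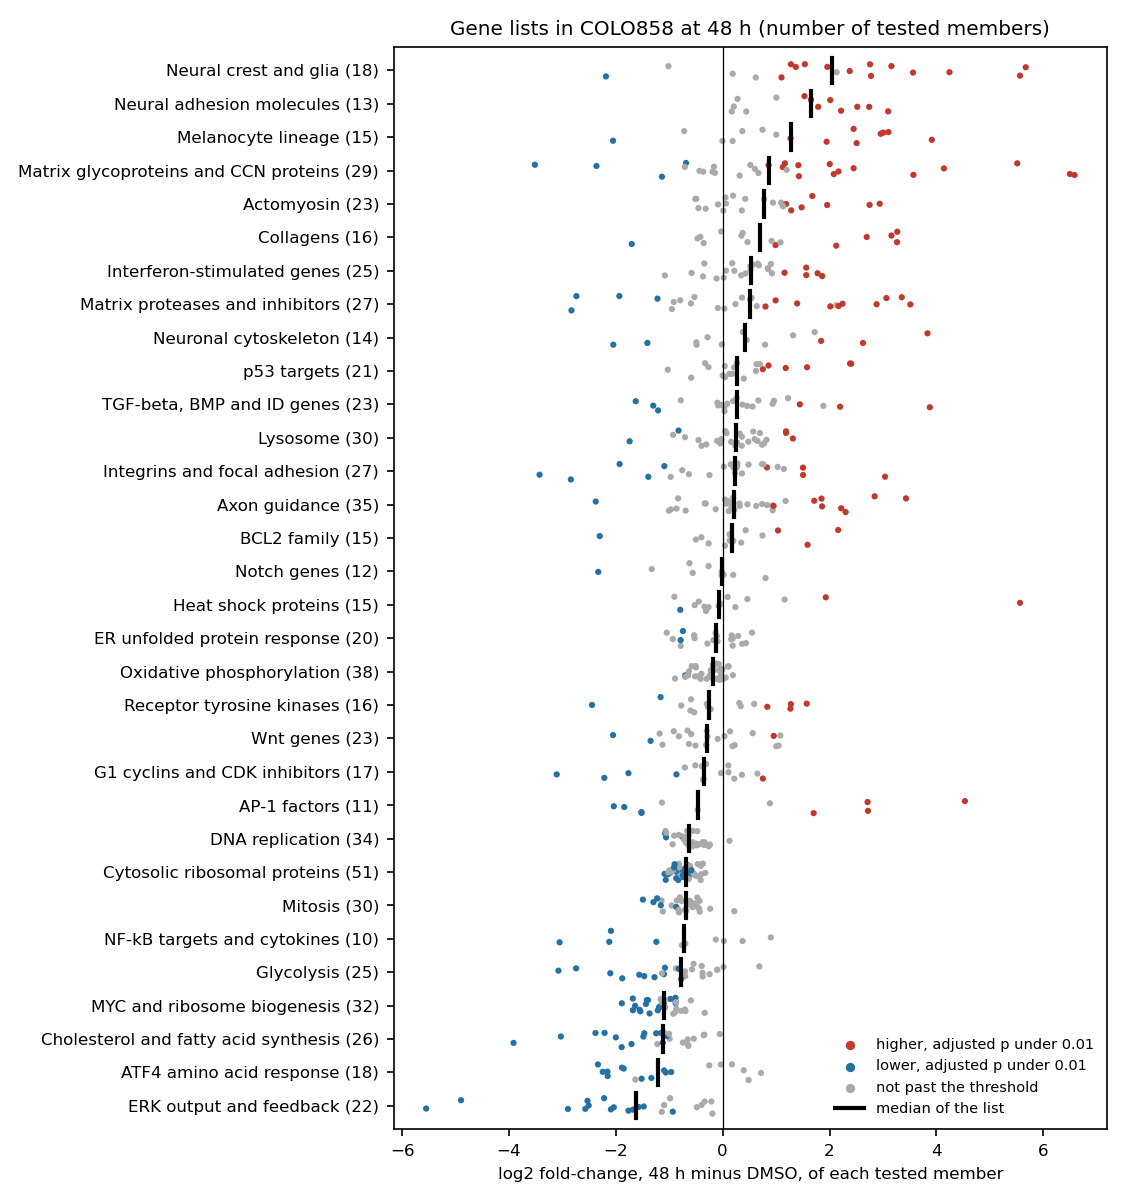
Log2 fold-change at 48 h against DMSO of each tested member (points) of 32 gene lists with at least 5 tested members, ordered by the list's median (black bar), with the number of tested members in brackets. Neural crest and glial genes stand highest, with a median of 2.05, and ERK output genes lowest, with −1.63. Lists and members were chosen with earlier results of these data known, so the order is a description.

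The neural adhesion genes that could be tested were mostly higher, and the axon guidance genes past the threshold were more often higher than lower. Of 19 neural adhesion molecules 13 were tested, and 6 stayed under a mean of 1 FPKM in both groups. Of the 13, 8 rose and 0 fell (10 and 0 with the block), with a median of 1.65. The minimum largely fixed the direction of members averaging under 1 FPKM under DMSO, such as CNTN6 (mean 0.597 FPKM). With a minimum of 10 FPKM, 4 of 5 rose and 0 fell. ALCAM, an immunoglobulin-type adhesion molecule, stood at 1.97 and 2.63 FPKM under DMSO and 14.7 and 21.6 FPKM at 48 h (2.52 ± 0.23), NCAM2 at 0.826 and 1.09 FPKM under DMSO and 7.35 and 8.86 FPKM at 48 h (2.22 ± 0.18) and CHL1, close homologue of L1, at 0.693 and 1.04 FPKM under DMSO and 5.97 and 7.07 FPKM at 48 h (2.01 ± 0.22). The study's genes CNTN6 (3.10), L1CAM (2.74) and NCAM1 (1.53) were in the same list. Of 35 axon guidance genes, 8 rose and 1 fell (17 and 7 with the block), with a median of 0.22. Of the 7 class 3 semaphorins tested, secreted guidance cues taken whole as a family, 4 rose and 1 fell (5 and 2 with the block). SEMA3D stood at 0.562 and 0.769 FPKM under DMSO and 13.9 and 20.5 FPKM at 48 h (3.43 ± 0.22) and SEMA3B at 26.5 and 14.6 FPKM under DMSO and 191 and 114 FPKM at 48 h (2.84 ± 0.41). SEMA3E (2.30) and SEMA3C (1.71) also rose, while SEMA3F fell from 24.3 and 18.2 to 3.84 and 2.72 FPKM (−2.38 ± 0.22). Their co-receptors NRP1 (0.05) and NRP2 (0.19) did not pass without the block.

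The neuronal cytoskeleton list was mixed, with 3 genes higher and 2 lower of 14 (7 and 4 with the block). Leaving out 1 library gave 1, 2, 2 and 1 lower. TUBA1A, the tubulin of growing neurons, went from 30.5 and 34.1 to 448 and 499 FPKM (3.83 ± 0.14), and MAP2 changed by 2.63 ± 0.22. TUBA4A, another alpha-tubulin, fell from 3.91 and 3.15 to 0.951 and 0.48 FPKM, and NEFL, the light neurofilament chain, from 108 and 128 to 26.6 and 28.8 FPKM (−2.05 ± 0.15). Tubulin genes are close in sequence, and the authors' counting may split reads between them.

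In the extracellular matrix, 14 of 29 glycoproteins and CCN proteins rose and 4 fell (18 and 6 with the block), with a median of 0.86. The genes called lower numbered 2 each time when 1 library was left out. The thrombospondins did not move as a family. THBS2, a close relative of THBS1, stood at 725 and 723 FPKM under DMSO and 64.7 and 60.2 FPKM at 48 h (−3.52 ± 0.13), so that THBS2 was the more abundant of the pair under DMSO and THBS1 at 48 h. THBS3 rose by 1.13 and THBS4 did not pass (0.32). CYR61, like NOV a CCN protein, stood at 2.52 and 2.23 FPKM under DMSO and 57.9 and 59.1 FPKM at 48 h (4.14 ± 0.15), and CTGF, another CCN protein, at 7.16 and 7.20 FPKM under DMSO and 21 and 20.6 FPKM at 48 h (1.42 ± 0.17). SPARC, a collagen-binding protein, stood at 132 and 162 FPKM under DMSO and 1564 and 1958 FPKM at 48 h (3.57 ± 0.18). TNC, tenascin-C, fell from 256 and 247 to 47.4 and 48.9 FPKM (−2.36 ± 0.13).

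Laminins, the trimers of the basement membrane, were uneven as well. LAMC1, the gamma chain common to most laminins, stood at 61.6 and 68.9 FPKM under DMSO and 258 and 271 FPKM at 48 h (2.00 ± 0.13), and LAMB2 at 17.4 and 13.6 FPKM under DMSO and 96 and 81.7 FPKM at 48 h (2.45 ± 0.18). LAMA1, an alpha chain, was lower in both drug libraries (38 and 36.9 against 28.2 and 26.7 FPKM) and passed only with the block (limma adjusted p = 0.058 without and 2.8e-04 with it). Among 16 collagens, 6 rose and 1 fell (10 and 3 with the block). COL5A2 stood at 2.13 and 2.35 FPKM under DMSO and 28.3 and 32 FPKM at 48 h, COL16A1 at 0.12 and 0.104 FPKM under DMSO and 10.2 and 9.30 FPKM at 48 h, and COL11A1 at 27.4 and 32.5 FPKM under DMSO and 256 and 295 FPKM at 48 h. COL3A1 went from 0.147 and 0.182 to 6.23 and 6.88 FPKM while COL1A2, a chain of type I collagen, fell from 2.63 and 2.61 to 0.141 and 0.084 FPKM. COL3A1 and COL1A1 are also fibroblast markers, and the summed level of that list, given above, was higher at 48 h. Whether other cells had a part in the collagen values was not tested.

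Of 27 matrix proteases and inhibitors, 10 rose and 4 fell (15 and 9 with the block). PLAT, tissue plasminogen activator, stood at 30.4 and 32.2 FPKM under DMSO and 325 and 333 FPKM at 48 h (3.35 ± 0.13). TIMP3, an inhibitor of metalloproteases, stood at 60.0 and 63.4 FPKM under DMSO and 489 and 561 FPKM at 48 h (3.06 ± 0.13), MMP2 at 15.8 and 12.6 FPKM under DMSO and 73.6 and 67.6 FPKM at 48 h (2.24 ± 0.17) and MMP1, the interstitial collagenase, at 29.9 and 36.4 FPKM under DMSO and 3.14 and 4.52 FPKM at 48 h (−2.83 ± 0.20). ADAM23, an adhesive member of the ADAM family without protease activity, stood at 5.45 and 5.64 FPKM under DMSO and 75.4 and 72.1 FPKM at 48 h (3.51 ± 0.15).

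The receptors for this matrix changed less uniformly. Of 27 integrin and focal adhesion genes, 4 rose and 5 fell (15 and 8 with the block). Without the block these are 14.8% and 18.5%, where 6.80% and 7.31% of all genes passed (27.2% and 30.6% with the block). ITGA1, a collagen-binding alpha chain, stood at 1.43 and 2.05 FPKM under DMSO and 19.2 and 23.7 FPKM at 48 h (3.04 ± 0.22). ITGB3, the beta chain of the vitronectin receptor, stood at 167 and 181 FPKM under DMSO and 15.5 and 15 FPKM at 48 h (−3.43 ± 0.14), and ITGA10 fell from 7.44 and 8.08 to 0.163 and 0.282 FPKM. ITGB1, the beta chain most alpha chains pair with, overlapped between the groups at 69.6 and 102 FPKM under DMSO and 83.4 and 117 FPKM at 48 h (0.23 ± 0.26, limma adjusted p = 0.54, 0.0074 with the block), and its sign turned when DMSO replicate 1 or 48 h replicate 2 was left out. PTK2, focal adhesion kinase, stood at 23.2 and 28.3 FPKM under DMSO and 28.2 and 31.2 FPKM at 48 h and passed in neither fit (limma adjusted p = 0.42, 0.019 with the block). FYN, a Src-family kinase, changed by 1.08 ± 0.19. In the actomyosin list, 7 of 23 genes rose and 0 fell (13 and 4 with the block), and with 1 library left out 6, 6, 5 and 4 rose. Smooth-muscle type ACTA2 stood at 11.6 and 9.59 FPKM under DMSO and 78.9 and 74.4 FPKM at 48 h (2.75 ± 0.16) and MYL9, a myosin light chain, at 5.10 and 3.47 FPKM under DMSO and 43.6 and 35 FPKM at 48 h (2.94 ± 0.23).

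**Figure D4:**
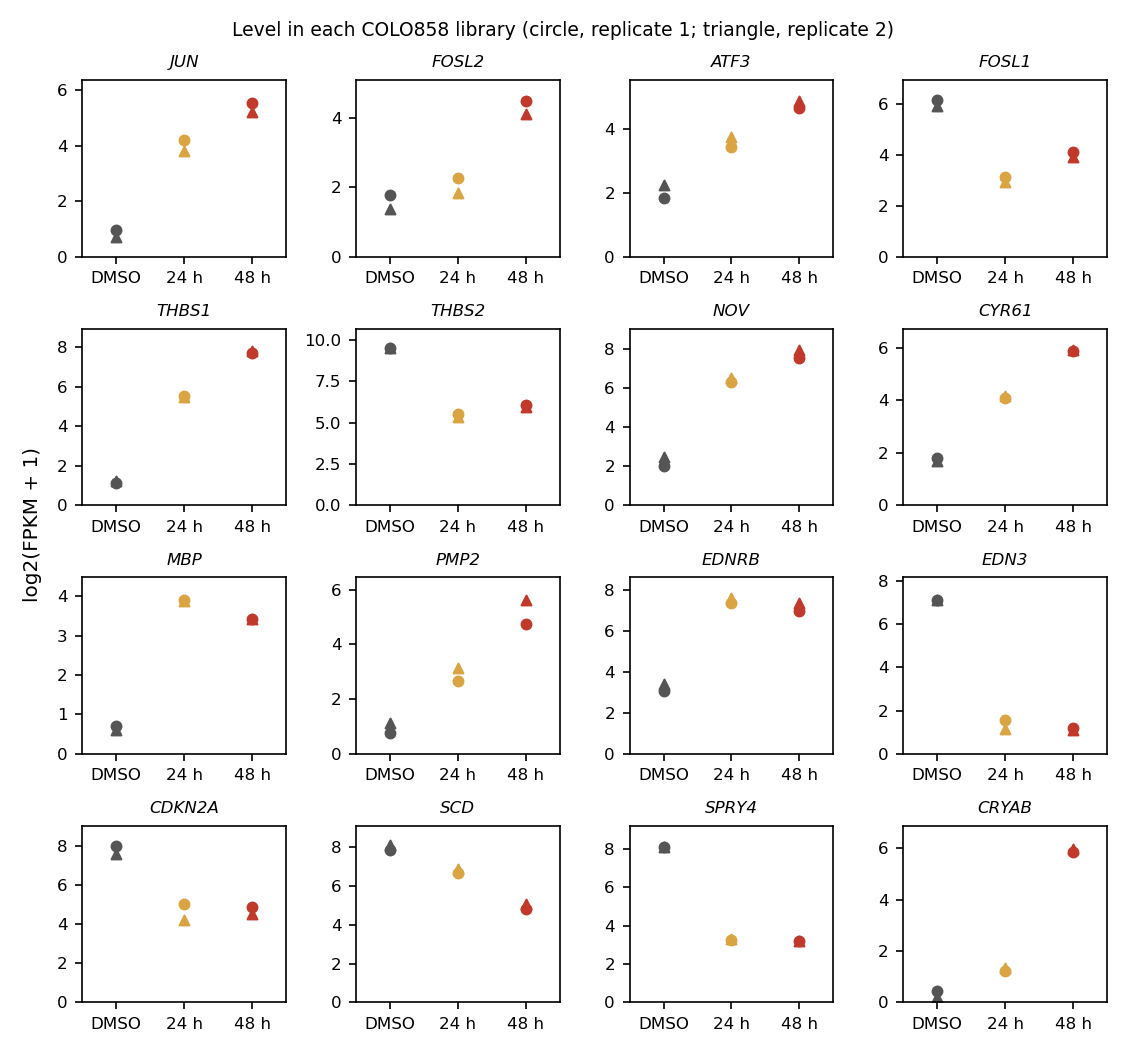
Level of 16 genes in log2(FPKM + 1) (y axis) in each COLO858 library under DMSO and at 24 and 48 h of vemurafenib (x axis), with circles for replicate 1 and triangles for replicate 2. THBS1, CYR61 and JUN are higher at each later time, CRYAB is at 1.36 and 1.53 FPKM at 24 h and at 56.3 and 61.2 FPKM at 48 h, and THBS2 and EDN3 are already low at 24 h.

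Receptor kinases and growth factor receptors split. Of 16 receptor tyrosine kinases tested, 4 rose and 2 fell (5 and 5 with the block), and 20 more stayed under 1 FPKM. Leaving out 1 library gave 1, 1, 2 and 1 higher, and 1 lower each time. MET, the hepatocyte growth factor receptor, stood at 2.16 and 2.59 FPKM under DMSO and 7.83 and 10.4 FPKM at 48 h (1.57 ± 0.23), ERBB3, a neuregulin receptor, at 42.6 and 45.5 FPKM under DMSO and 107 and 109 FPKM at 48 h (1.28 ± 0.13), and its partner ERBB2 changed by 1.27 ± 0.23. AXL fell from 7.22 and 7.25 to 2.72 and 2.64 FPKM (−1.16 ± 0.15) and FGFR4 from 15.6 and 12.8 to 2.54 and 1.18 FPKM (−2.45 ± 0.27). EGFR, at 1.17 and 1.40 FPKM under DMSO and 0.702 and 0.324 FPKM at 48 h, passed in neither fit (−0.60, limma adjusted p = 0.04, 0.011 with the block). In the TGF-beta and BMP list, TGFBR2, the ligand-binding receptor, rose from 6.60 and 7.60 to 108 and 129 FPKM (3.88 ± 0.17) and the ligand TGFB2 from 1.07 and 1.33 to 8.03 and 10.2 FPKM, while ID4 fell from 14.3 and 20.9 to 4.38 and 5.52 FPKM. Of 23 genes 3 rose and 3 fell (10 and 4 with the block). With 1 library left out 3, 0, 0 and 0 fell. The Wnt list had 1 gene higher (DKK3, 0.96) and 2 lower (LEF1 and NOTUM, −1.35) of 23, with the block 4 higher and 12 lower, and with 1 library left out 1, 0, 0 and 0 higher, and 1 lower each time. The Notch list had 1 of 12 lower (HEY1, 14.5 and 17.9 to 2.31 and 2.51 FPKM), and with the block 1 higher and 5 lower. Without the block, 8.70% of the Wnt and 8.33% of the Notch genes were lower, near the 7.31% of all genes (30.6% with the block). The shares higher were 4.35% and 0%, against 6.80% of all genes (27.2% with the block).

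Cell cycle genes were lower by small amounts, and how many were called depended on the fit. Of 34 DNA replication genes, 3 fell without the block and 28 with it, with a median of −0.63. The 3 are 8.82% of the list, near the 7.31% of all genes that fell, and with the block 30.6% of all genes did. Over the 14 other settings the median lay between −0.66 and −0.53 and the number called between 0 and 32. Of 30 mitotic genes, 5 fell without the block and 27 with it (median −0.69), and 1 to 29 over the other settings. Without any 1 of the 4 libraries 0 replication genes and 1 mitotic gene fell. MCM7, a subunit of the replicative helicase, stood at 361 and 292 FPKM under DMSO and 177 and 136 FPKM at 48 h (−1.06 ± 0.18), and AURKA, a mitotic kinase, at 53.2 and 67.4 FPKM under DMSO and 20.8 and 27.2 FPKM at 48 h (−1.30 ± 0.21). Both had been lower at 24 h, 40.5 and 37.8 FPKM for MCM7 and 10.2 and 12.8 FPKM for AURKA. Of 17 G1 cyclins and CDK inhibitors, 1 rose (CDKN1A) and 4 fell (2 and 10 with the block), and the CDK inhibitors split. CDKN1A (p21) stood at 111 and 102 FPKM under DMSO and 186 and 174 FPKM at 48 h (0.75 ± 0.13), whereas CDKN2A, the locus of p16 and ARF, stood at 261 and 190.0 FPKM under DMSO and 28.3 and 22 FPKM at 48 h (−3.11 ± 0.30) and CDKN2B (p15) at 10.2 and 13.5 FPKM under DMSO and 1.41 and 2.13 FPKM at 48 h (−2.22 ± 0.21). CDKN1A passed the threshold in only 6 of the 14 other settings, with a log2 fold-change of 0.69 to 0.81 over them. FPKM per gene does not separate the transcripts of CDKN2A.

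Of 21 p53 targets, 6 rose and 0 fell (10 and 4 with the block), led by TP53INP1 (1.39 and 1.87 to 10.8 and 15.4 FPKM) and FAS, a death receptor (1.49 and 1.76 to 11.2 and 14.4 FPKM), with MDM2 not passing (0.18 ± 0.30). Leaving out any 1 of the libraries gave 3 higher. In the BCL2 family 3 of 15 rose and 1 fell (6 and 3 with the block), with 1, 2, 1 and 1 higher with 1 library left out, and the pro-apoptotic BH3-only genes differed. BMF rose from 4.65 and 3.89 to 21.6 and 23.4 FPKM (2.16 ± 0.18) and BCL2L11 (BIM) from 3.39 and 6.09 to 13.9 and 17.8 FPKM (1.59 ± 0.27). PMAIP1 (NOXA) fell from 13 and 19.2 to 2.01 and 2.88 FPKM (−2.30 ± 0.25). The anti-apoptotic BCL2 rose by 1.04 ± 0.18, and MCL1 did not pass in either fit (0.18).

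The biosynthetic lists were lower. In the MYC and ribosome biogenesis list 18 of 32 fell and 0 rose (31 fell with the block), with a median of −1.09. The genes called lower numbered 7, 5, 4 and 6 when 1 library was left out. FBL, the methyltransferase of nucleolar RNA, stood at 294 and 230.4 FPKM under DMSO and 90.0 and 76.2 FPKM at 48 h (−1.64 ± 0.18) and NPM1, nucleophosmin, at 827 and 1038 FPKM under DMSO and 368 and 450.3 FPKM at 48 h. Of 51 cytosolic ribosomal protein genes, 24 fell without the block and 51 with it. Their median was −0.69 and kept its sign over the 14 other settings (−0.77 to −0.64), while the number called ran from 1 to 51 and was 1, 2, 1 and 2 with 1 library left out. RPL12 stood at 2395 and 2238 FPKM under DMSO and 1100.3 and 1079 FPKM at 48 h (−1.09 ± 0.10). These genes have near-identical processed copies in the genome, so their values are uncertain. FPKM are relative levels and their library scaling is not given, so a lower value need not be a lower amount per cell.

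Of 26 cholesterol and fatty acid synthesis genes, 13 fell and 0 rose (25 fell with the block), with a median of −1.11. With 1 library left out 7, 7, 7 and 6 fell. SCD, a fatty acid desaturase, stood at 229.6 and 277 FPKM under DMSO and 27.2 and 33.1 FPKM at 48 h (−3.03 ± 0.18). SREBF1 and SREBF2, the transcription factors of this set, changed by −1.49 and −1.15, and FDFT1 did not pass in either fit (−0.05). In glycolysis 11 of 25 fell and 0 rose (21 and 1 with the block), and with 1 library left out 5, 8, 7 and 5 fell. HK2, the inducible hexokinase, stood at 17.7 and 17.2 FPKM under DMSO and 3.26 and 3.33 FPKM at 48 h (−2.10 ± 0.15), LDHA, lactate dehydrogenase, at 941 and 1216 FPKM under DMSO and 251 and 335 FPKM at 48 h (−1.88 ± 0.21), and the lactate exporter SLC16A3 at 29.8 and 18.7 FPKM under DMSO and 3.03 and 2.36 FPKM at 48 h. Oxidative phosphorylation moved less, with 1 of 38 lower without the block (SDHB, −0.70), 20 with it, 0 each time with 1 library left out, and a median of −0.19.

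The ATF4 amino acid response had 11 of 18 genes lower and 0 higher (13 and 3 with the block). Leaving out 1 library gave 8, 7, 6 and 8 lower. PHGDH, the first enzyme of serine synthesis, stood at 132 and 121 FPKM under DMSO and 26.6 and 22.1 FPKM at 48 h (−2.33 ± 0.17), ASNS, asparagine synthetase, at 73 and 91.9 FPKM under DMSO and 16.9 and 18.5 FPKM at 48 h (−2.15 ± 0.18), and the cystine transporter SLC7A11 at 4.94 and 8.53 FPKM under DMSO and 0.807 and 1.30 FPKM at 48 h. The stress factor DDIT3 did not pass (0.17). Without the block 10% of the endoplasmic reticulum stress list and 6.67% of the heat shock list fell, near the 7.31% of all genes (30.6% with the block). Of the heat shock list 13.3% rose, where 6.80% of all genes did (27.2% with the block). In the endoplasmic reticulum stress list 2 of 20 fell (MANF, −0.79, and XBP1, −0.74), with the block 5 rose and 8 fell, and with any 1 library left out 0 fell. Among heat shock proteins 2 of 15 rose (CRYAB, given above, and DNAJB4, 1.93) and 1 fell (HSPE1, −0.79), with the block 5 rose and 6 fell, and with 1 library left out 1, 2, 2 and 1 rose, and 0 fell each time.

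Of 25 interferon-stimulated genes, 5 rose and 0 fell (13 and 3 with the block). The genes called higher numbered 2, 4, 3 and 2 when 1 library was left out. STAT2 stood at 5.83 and 6.68 FPKM under DMSO and 23.1 and 27.8 FPKM at 48 h (1.86 ± 0.18) and IFIT1 at 1.19 and 1.89 FPKM under DMSO and 6.24 and 9.24 FPKM at 48 h, while ISG15 was lower in both drug libraries (21.2 and 19.4 against 8.35 and 9.81 FPKM) and passed only with the block. In the NF-kB list 4 of 10 genes fell and 0 rose (6 and 2 with the block), with TNFAIP3, an inhibitor of the pathway, at 23.8 and 25.9 FPKM under DMSO and 2.04 and 2.19 FPKM at 48 h (−3.05 ± 0.16) and the chemokine IL8 at 2.87 and 4.76 FPKM under DMSO and 0 and 0.175 FPKM at 48 h, where 1 of the 2 drug libraries is listed at 0. In the lysosome list 3 of 30 rose and 2 fell (14 and 6 with the block). Without the block these are 10% and 6.67%, near the 6.80% and 7.31% of all genes (27.2% and 30.6% with the block). Leaving out 1 library gave 2, 2, 1 and 2 higher, and 1 lower each time. CTSA, a protective carboxypeptidase, stood at 210.0 and 153 FPKM under DMSO and 512 and 390.3 FPKM at 48 h and the protease CTSZ at 1401 and 1098 FPKM under DMSO and 418 and 328 FPKM at 48 h (−1.74 ± 0.19). Of the MHC list only B2M (0.05) and ERAP1 (0.29) could be tested and neither passed, and most of its other genes lie in the chromosome 6 region described above.

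Whether the change differed from that in MMACSF was asked of 30 genes, 19 of the 20 largest changes and the genes the study names. The 48 h change in MMACSF was subtracted from that in COLO858, as an interaction in limma over the 12 libraries, which come in separately normalized tables. Over all 13031 genes of that fit 8.82% differed past an adjusted p of 0.01 (31.3% with the block). Of the 30, 24 differed without the block and 27 with it. Between 48 h and 24 h in COLO858, 13 of the 30 differed (24 with the block), where 2.82% of all 12181 genes did (32.8% with the block). Since the 19 were taken for their size in COLO858 and the study named the others from these libraries, both counts are descriptions and nothing is read from them. THBS1 changed by −0.20 in MMACSF against 6.59 in COLO858, and EDN3 by 0.01 against −5.97, and both averaged under 1 FPKM in the DMSO and 48 h groups of MMACSF, as did FAM129A, FAM19A3, NPR1 and CNTN6, so these 6 were not tested in that line alone. UCN2 (−6.32 against −5.70) and ETV4 (−5.17 against −5.55) fell in both lines, and the differences, 0.63 and −0.38, did not pass (limma adjusted p = 0.21 and 0.43). For PHLDA2 the difference between −4.42 in COLO858 and −1.88 in MMACSF passed only with the block (limma adjusted p = 0.036 without it).

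**Figure D5:**
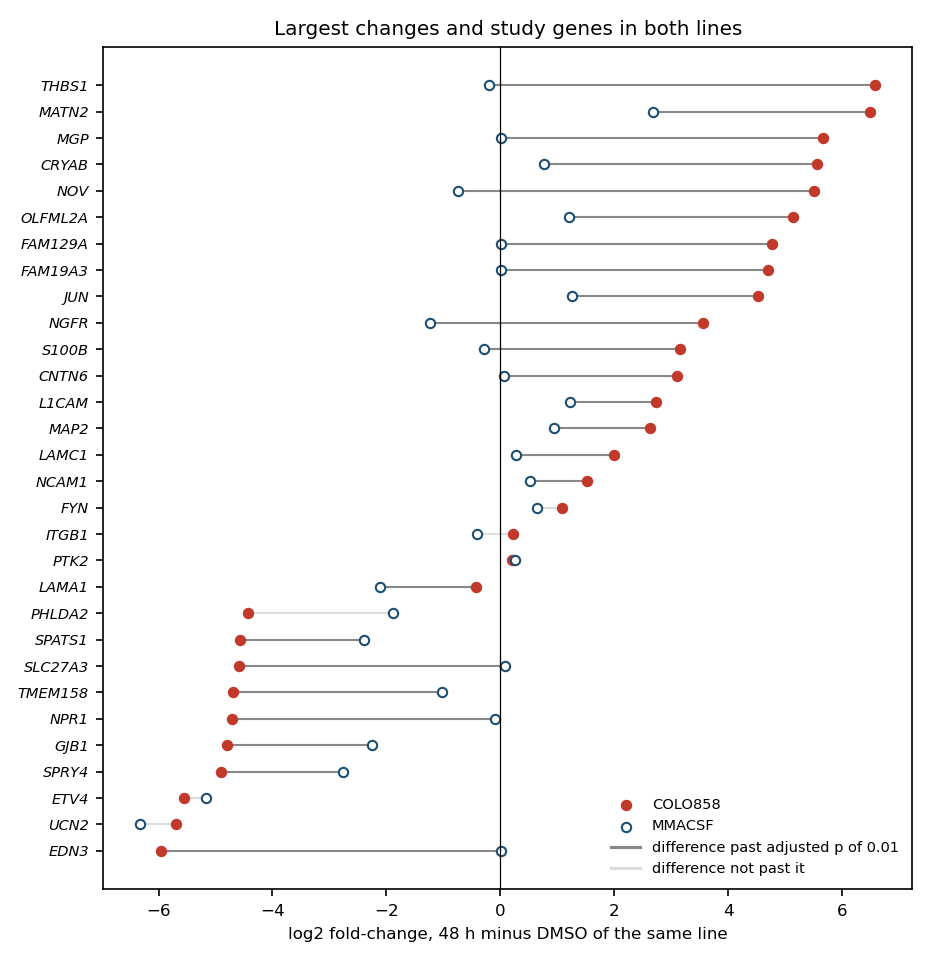
Log2 fold-change at 48 h against the DMSO libraries of the same line (x axis) for 9 of the 10 largest rises, the 10 largest falls and the genes named by the study, with filled points for COLO858 and open points for MMACSF. Dark connecting lines mark the 24 genes whose difference passed an adjusted p of 0.01.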

How the data were processed

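Per the labels and the study's methods, cells were lysed in the dish, RNA of integrity number 9 or higher was made into stranded mRNA libraries with spike-in RNA, and single reads of 50 bases were mapped to hg19 with TopHat. Values in the deposited tables, 1 per cell line, are FPKM that the authors obtained with Cuffdiff on Galaxy. Program versions, gene annotation, strand setting and library scaling are not given in the sources used here. FPKM keep no read depth, so the precision that depth sets is unknown, and spike-in values were not used here. A scaling set by total fragments lets abundant RNA shift other genes.

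Small RNA genes were left out, 1 FPKM was added, and log2 values of the 6 COLO858 libraries in 3 groups were fitted in R 4.3.3, using limma 3.58.1 and a mean-variance trend. Fold-changes are on that log2(FPKM + 1) scale, which understates changes of low genes. All tests are two-sided, and p-values were adjusted over all 12181 genes by Benjamini-Hochberg and read at the study's q threshold of 0.01. The mean FPKM of the higher group just inside the minimum of 1 were 1.00052 (LOC100507564) and 1.00082 (ICA1L), and just outside 0.999481 (IKZF2) and 0.999569 (C18orf56).

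Both fits, with and without the replicate number as a block, are given. The labels give the numbers and no source says what they pair. In all 3 pairs of groups same-numbered libraries deviated together (r = 0.784 for DMSO and 48 h, 0.775 for DMSO and 24 h, 0.761 for 24 h and 48 h). Only the fit with the block takes the numbers to pair the libraries, and the calls rose and fell come from the fit without it. Differences between the lines were fitted as an interaction over 12 libraries. The 24 h and 48 h libraries were compared with the same DMSO libraries.

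Gene lists were written from general knowledge, and members and lists were chosen with earlier results of these data known. Genes were named by rule: the 10 largest rises and falls, the 2 largest of each list in each direction (or the largest change where none passed), and the genes the study names. Other list members are named in addition and were chosen after their values were seen. Of 107 genes named by rule and reported, 103 were found in the GENCODE annotation lifted to GRCh37. No column of the tables was left out. Some genes that the rule picks are not reported here, though they stayed in the fit and in the counts of the lists.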

Additional observations from a re-analysis of the deposited data

Results flagged for a closer look

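The change at 48 h differed between COLO858 and MMACSF for 24 of 30 genes by the interaction test, where 8.82% of all genes did. Of the 30, 19 were taken for the size of their change in COLO858 and the study named the others from these libraries, so nothing is read from that excess. THBS1, FAM129A, FAM19A3, EDN3, NPR1 and CNTN6 averaged under 1 FPKM in both the DMSO and the 48 h group of MMACSF, so for these 6 the difference is the change in COLO858 set against a line in which the gene is listed near 0. The differences, COLO858 minus MMACSF in log2 fold-change, were 6.79 for THBS1, 6.25 for NOV, 5.66 for MGP, 4.80 for CRYAB, 4.79 for NGFR, 4.76 for FAM129A and 4.70 for FAM19A3. They were 3.93 for OLFML2A, 3.82 for MATN2, 3.44 for S100B, 3.28 for JUN and 3.03 for CNTN6. Smaller positive differences were 1.73 for LAMC1, 1.68 for MAP2, 1.68 for LAMA1, 1.52 for L1CAM and 1.01 for NCAM1. For LAMA1 the positive difference came with a change of −0.43 in COLO858 and −2.11 in MMACSF. A difference does not mean that MMACSF was unchanged. In MMACSF alone, MATN2 (2.68), L1CAM (1.23), OLFML2A (1.20) and CRYAB (0.77) also rose. JUN changed by 1.26 there and passed only with the block (limma adjusted p = 0.011 without it). SPRY4 (−2.76), SPATS1 (−2.39) and GJB1 (−2.26) also fell in MMACSF, and NGFR went the other way (−1.23). Negative differences were −5.97 for EDN3, −4.68 for SLC27A3, −4.62 for NPR1, −3.68 for TMEM158, −2.53 for GJB1, −2.17 for SPATS1 and −2.14 for SPRY4. FYN, ITGB1 and PHLDA2 passed this test only with the block.

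Within COLO858, 13 of the 30 genes differed between 48 h and 24 h (24 with the block), where 2.82% of all genes did (32.8% with the block). The 19 were chosen on the same 48 h values, so this excess follows in part from the choice and nothing is read from it. The differences, 48 h minus 24 h, were 4.61 for CRYAB, 4.11 for NGFR, 3.07 for FAM19A3, 2.79 for MATN2, 2.24 for THBS1 and 2.11 for OLFML2A. They were 2.02 for CNTN6, 1.82 for FAM129A, 1.81 for MGP, 1.54 for NCAM1 and 1.16 for S100B. GJB1 (−2.28) and UCN2 (−1.68) were lower at 48 h than at 24 h. NGFR stood at 1.96 and 1.36 FPKM at 24 h, below both DMSO libraries (2.89 and 2.82 FPKM), and at 49.9 and 39.8 FPKM at 48 h.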

How the results depend on the processing

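With the replicate block the counts went from 828 higher and 891 lower to 3309 and 3733, and with the block and only the 4 libraries compared to 3891 and 4416. A minimum of 10 FPKM, which tests fewer genes, gave 491 and 533. Leaving out each library in turn, which leaves 1 sample assumed to vary like the other groups, gave 372 to 415 higher and 318 to 414 lower. Under the other settings tried (a constant of 0.1 FPKM, no minimum, only the 4 libraries, median-ratio and upper-quartile rescaling, no trend, small RNA genes kept) both counts stayed within 1.5 times. Of 107 named genes, 102 passed, 104 with the block, and 76 to 80 with 1 library left out. With the block, LAMA1 and ITGB1 passed in addition, and the block took no call from the others. The sign turned for ITGB1 alone, to −0.040 without DMSO replicate 1 and −0.012 without 48 h replicate 2, in a range of −0.040 to 0.50 over the 4 libraries left out. The cause was not tested. With 2 replicates per group and no read depth, genes with changes under about the smallest called, 0.53, could not be told from the spread without the block. Many larger changes were not called either: 1773 genes changed by a log2 fold-change of at least 1, and 1369 of them were called.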

Other observations

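Families taken whole by their symbols, and chosen after their values were seen, add to the lists. Among 31 tested histone genes, 8 rose and 3 fell (14 and 6 with the block), with a median log2 fold-change of 0.95. HIST1H4H stood at 0.391 and 0.467 FPKM under DMSO and 32.9 and 24.9 FPKM at 48 h (4.38 ± 0.21), HIST2H2BE at 1.60 and 1.35 FPKM under DMSO and 31.8 and 31.7 FPKM at 48 h (3.73 ± 0.16) and HIST1H1C, a linker histone, at 8.39 and 3.79 FPKM under DMSO and 65.3 and 45.3 FPKM at 48 h (3.05 ± 0.36). HIST1H2BH went the other way, from 96.5 and 63.5 to 6.17 and 10.2 FPKM (−3.14 ± 0.29). Most histone messages lack a poly(A) tail and the genes are near copies of each other, so mRNA libraries catch them unevenly and these values are uncertain. The S100 genes of calcium-binding proteins also parted. Of 10 tested, 2 rose and 5 fell (3 and 7 with the block), where 6.80% of all genes rose and 7.31% fell (27.2% and 30.6% with the block), and S100A10 stood at 98.4 and 76 FPKM under DMSO and 293 and 239 FPKM at 48 h (1.60 ± 0.20) while S100A16 stood at 112 and 112 FPKM under DMSO and 14.6 and 14.4 FPKM at 48 h (−2.87 ± 0.14) and S100A4 at 44.1 and 47.2 FPKM under DMSO and 12.2 and 10.4 FPKM at 48 h (−1.93 ± 0.17). ANXA2, whose protein forms a complex with that of S100A10 at membranes, was the 1 annexin of 8 that rose without the block, from 165 and 176 to 1788 and 2009 FPKM (3.46 ± 0.13), and 5 rose and 1 fell with it.

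Of 12 RGS genes, which encode brakes on G protein signaling, 1 rose and 5 fell (2 and 7 with the block), where 6.80% and 7.31% of all genes did (27.2% and 30.6% with the block). RGS3 stood at 18.8 and 17.8 FPKM under DMSO and 71.7 and 67.6 FPKM at 48 h (1.87 ± 0.14), RGS2 at 41.4 and 57 FPKM under DMSO and 6.61 and 9.07 FPKM at 48 h (−2.50 ± 0.22) and RGS5 at 17.6 and 28.1 FPKM under DMSO and 2.46 and 3.78 FPKM at 48 h (−2.52 ± 0.28). Of 4 caveolins and cavins tested, 1 rose and 0 fell (3 and 1 with the block), to be read against the same shares of all genes. CAV1, the coat protein of caveolae, went from 5.91 and 7.21 to 81.2 and 106 FPKM (3.63 ± 0.20), while PRKCDBP passed in the lower direction only with the block (−1.05). Of 5 claudins tested, 1 rose and 1 fell (2 and 2 with the block), with a median of −0.07, where 6.80% and 7.31% of all genes did (27.2% and 30.6% with the block). The tight junction gene CLDN1 went from 0.886 and 1.26 to 32.9 and 43.1 FPKM (4.23 ± 0.22), and its relative CLDN4 from 6.03 and 4.11 to 0.354 and 0.054 FPKM (−2.33 ± 0.27).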
